A study of Mus musculus with 12 samples.

Results

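The genes described here are 44 genes of DNA replication, given as a list of symbols that covers origin licensing, the MCM helicase and its activators, DNA polymerases, the sliding clamp and its loader, nucleotide supply, chromatin assembly and the control of S phase entry. All 44 symbols were found once each among the 54532 genes of the count table, and all 44 were among the 14424 genes that passed the filter on low counts and were tested. Poly(A) RNA was sequenced from 12 samples of ATDC5, a mouse line that the labels call wild-type (WT) cartilage progenitor cells. All were grown at 37 °C in high-sugar DMEM medium with 10% FBS (fetal bovine serum) and 5% CO2, and then exposed for 10 min to 37 °C, to 40 °C or to 44 °C, with 4 replicates of each. The 37 °C group is the control, the labels name no other agent, and the time between exposure and RNA extraction is not stated. The data come from a single cell line, and values are given as CPM, the read count of a gene scaled to library size after adjustment by TMM, the trimmed mean of M values.

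Replication starts in separate steps for loading and activation. In G1 the origin recognition complex, with Cdc6 and Cdt1, loads the MCM helicase onto DNA, and at the start of S phase Cdc45 and GINS join the helicase so that it unwinds the helix. Primase and polymerase alpha then lay down primers, polymerases epsilon and delta extend them with the sliding clamp PCNA, RPA covers single-stranded DNA, and ribonucleotide reductase and thymidylate synthase supply the building blocks. Cyclin E with its kinase partner and the E2F transcription factors drive entry into S phase, and many replication genes are textbook E2F targets that are transcribed around the G1/S boundary.

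Promoter sequence is shown for the primase gene that had the largest change, for the members called higher whose window holds E2F-type letters, and for an MCM gene that carries such letters more than once. RefSeq promoter windows (GRCm38.p6, the patch release of mm10), which run from 250 bases before to 50 after each start, were matched for 36 of the 44 members. The E2F-type letter strings, TTTCCCGC and TTTGGCGC, and the CCAAT letters bound by NF-Y were searched on both strands. The strings do not overlap one another in the windows printed. Each line below gives the 160 bases before the start, 5′ to 3′ along the gene, with every match in capitals and a match on the other strand shown as its reverse complement.
Prim1: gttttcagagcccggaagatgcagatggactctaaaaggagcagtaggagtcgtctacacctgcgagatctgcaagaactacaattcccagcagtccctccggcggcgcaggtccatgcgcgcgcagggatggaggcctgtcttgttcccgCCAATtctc
Gins3: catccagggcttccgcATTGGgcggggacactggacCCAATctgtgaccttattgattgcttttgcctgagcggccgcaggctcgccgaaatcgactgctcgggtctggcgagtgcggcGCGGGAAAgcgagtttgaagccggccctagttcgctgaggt
Pola1: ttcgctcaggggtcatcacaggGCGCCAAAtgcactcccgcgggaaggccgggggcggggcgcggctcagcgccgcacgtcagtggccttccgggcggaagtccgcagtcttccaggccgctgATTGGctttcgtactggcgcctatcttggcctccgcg
Mcm6: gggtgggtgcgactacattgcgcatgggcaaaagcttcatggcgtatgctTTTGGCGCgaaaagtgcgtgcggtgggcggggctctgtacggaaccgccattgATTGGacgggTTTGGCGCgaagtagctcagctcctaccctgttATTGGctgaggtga

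The stretches lie at chr10:128015055-128015214 on the plus strand for Prim1, chr8:95633399-95633558 on the plus strand for Gins3, chrX:93632156-93632315 on the minus strand for Pola1 and chr1:128359706-128359865 on the minus strand for Mcm6. Prim1 has a CCAAT match beginning 9 bases before its start and no E2F-type match in its window. Gins3 has the reverse complement of TTTCCCGC at 41 bases before the start, and Pola1 that of TTTGGCGC at 138 bases before it. Mcm6 holds TTTGGCGC at 110 and again at 47 bases before the start. Either E2F-type string was present in the windows of 12 of 36 matched members (33.3%), against 353 of 10112 tested genes (3.49%) and 1.8% of all 27025 genes with a promoter window. CCAAT was present in 22 of 36 (61.1%), against 43% of tested genes. Among members called higher at 44 °C, 2 of the 13 with a promoter had an E2F-type string, against 10 of the 23 members not called. These matches describe the letters of the windows only.

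Library totals ranged from 16269026 to 19506705 counts, and a limit of 3 counts corresponded to between 0.154 and 0.184 CPM, below the mean of every member. The chondrogenic regulator Sox9 was present at 54.5 ± 10.8 CPM at 37 °C (SD, n = 4), but the cartilage matrix genes Col2a1 (1.22 CPM) and Acan (2.14 CPM) were low and Matn1 had no read in any library. The 8 cartilage genes, of which 7 had reads, summed to between 61.7 and 94 CPM at 37 °C and between 46.2 and 88 CPM at 44 °C. Of the blood list, Ptprc and Adgre1 had at most 1 read in a library and Csf1r and Itgam at most 2, while Mpeg1 reached 142 and Cd68 reached 789. Of the endothelial list, Emcn had at most 1 read, Tek 6, Cdh5 14, Pecam1 39 and Kdr 65. Of the 4 fat genes, Adipoq and Lep had no read, Plin1 at most 1 and Fabp4 at most 16, and their sum lay between 0.243 and 0.818 CPM at 37 °C and between 0.361 and 1.02 CPM at 44 °C. Of the marker lists of other cell types, the 6 mesenchymal genes, all with reads, summed to between 4000 and 4460 CPM at 37 °C and between 3160 and 3680 CPM at 44 °C, of which Vim was the bulk. In the same order of temperatures, the 6 smooth muscle genes summed to between 204 and 233 CPM and between 135 and 163 CPM. Acta2, Cspg4 and Pdgfrb made up most of this, with Myh11, Cnn1 and Tagln each at 0.236 CPM or less at 37 °C. The 5 epithelial genes, with Krt18 the bulk, summed to between 86.4 and 109 CPM at 37 °C and between 97.6 and 128 CPM at 44 °C. The 6 blood genes, of which 5 had reads and Cd68 had most, summed to between 31 and 47.7 CPM and between 20 and 33.6 CPM, and the 5 endothelial genes to between 2.19 and 3.3 CPM and between 4.03 and 5.97 CPM. The part of these shifts in the results below was not tested. In bulk samples, fewer cells of a type and less RNA per cell cannot be told apart.

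Levels of the 44 genes were compared per kilobase of the gene length listed in the table. At 37 °C the small ribonucleotide reductase subunit Rrm2 was highest, at 183 CPM per kilobase, followed by the clamp Pcna at 125, Mcm5 at 82.5 and Mcm3 at 77.9. The 6 MCM subunits lay between 32.3 (Mcm2) and 82.5 CPM per kilobase, while the 4 GINS subunits spread from 5.46 (Gins2) to 36.7 (Gins4). The catalytic subunits Pola1 and Pole stood low, at 8.64 and 10.2 CPM per kilobase, below their partners Pola2 (35.9) and Pole2 (13.4). The lowest levels belonged to Gins2, Orc1 (6.86) and Fen1 (3.33), the flap endonuclease of Okazaki fragments. Fen1 lies over the opposite-strand gene Tmem258, and since strand use in counting is not given in the sources used here its level is uncertain. In all, 11 members overlap a protein-coding gene on the other strand. They are Fen1, Orc6, Mcm7, Cdc45, Gins2, Rfc2, Rfc4, Rfc5, Lig1, Chaf1a and Ccne2, and the same limit holds for their counts. Pcna has a copy named Pcna-ps2, listed with 8098 reads over the 12 libraries (13.2% of the Pcna reads), so the division of reads between them is uncertain.

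**Figure D1:**
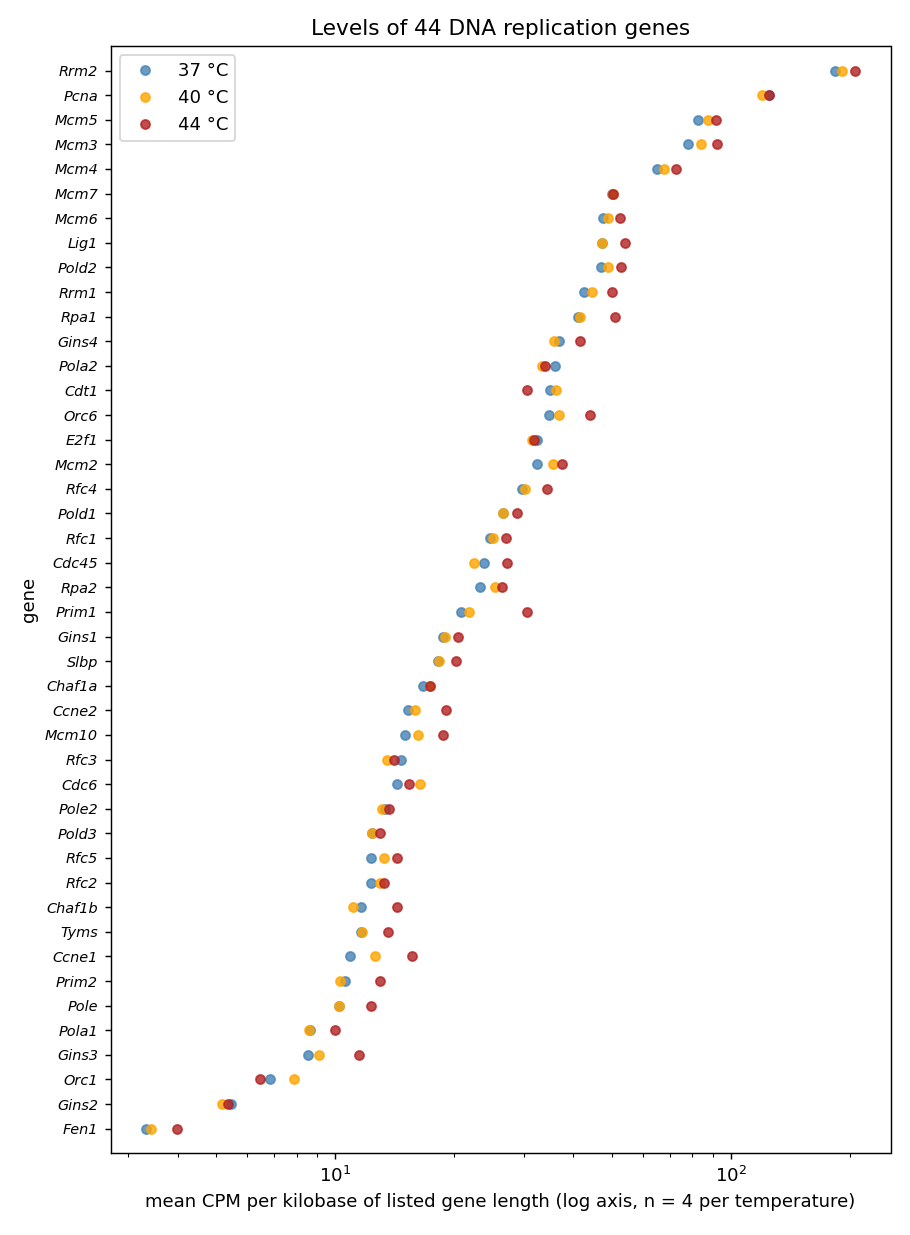
Mean CPM per kilobase of listed gene length for each of the 44 genes (log axis, n = 4 libraries per temperature, 1 point per temperature), ordered by the level at 37 °C. Rrm2 tops the order at 183 and Fen1 ends it at 3.33 CPM per kilobase, and the points of the 3 temperatures lie close together beside the differences between genes.

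At 44 °C the replication genes were more often higher than lower, by small amounts. The summed level of the 44 genes was 5315, 5701, 5870 and 5624 CPM in the 4 libraries at 37 °C, 5707, 6231, 5662 and 5561 CPM at 40 °C and 6237, 6446, 6301 and 6301 CPM at 44 °C. No library of the other temperatures reached the lowest sum at 44 °C, and 40 °C replicate 2 came nearest. By edgeR's quasi-likelihood test with Benjamini-Hochberg adjustment over all genes tested, 15 of the 44 rose at 44 °C against 37 °C and none fell, where 6.58% of all genes tested were called higher and 7.11% lower. The changes were between 1.12-fold and 1.46-fold. The median log2 fold change of the 44 was 0.18, against −0.00 over all genes tested, and 37 of the 44 had a value above 0. In 20 members the lowest library at 44 °C exceeded the highest at 37 °C, as it did in 8.62% of genes tested. No member had the reverse, which 1317 of the 14424 genes tested had. DESeq2 called 20 of the 44 higher, where it called 9.23% of all genes tested higher. Leaving out single libraries moved the number called. With 37 °C replicate 1 or 37 °C replicate 4 left out 8 members passed, and with 37 °C replicate 2 or 44 °C replicate 3 left out 9 passed. The most, 19, passed when 40 °C replicate 2 was left out. The count of all genes tested called higher moved in the same direction. It was below the 949 of the main fit in each fit that gave 8 or 9 members, with 405 without 37 °C replicate 1. It was above 949 without 40 °C replicate 2. These moves are therefore not read as particular to the replication genes. The genes Prim1, Prim2, Pole, Rpa1, Rrm1, Chaf1b and Ccne1 were called under all 18 alternatives run.

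**Figure D2:**
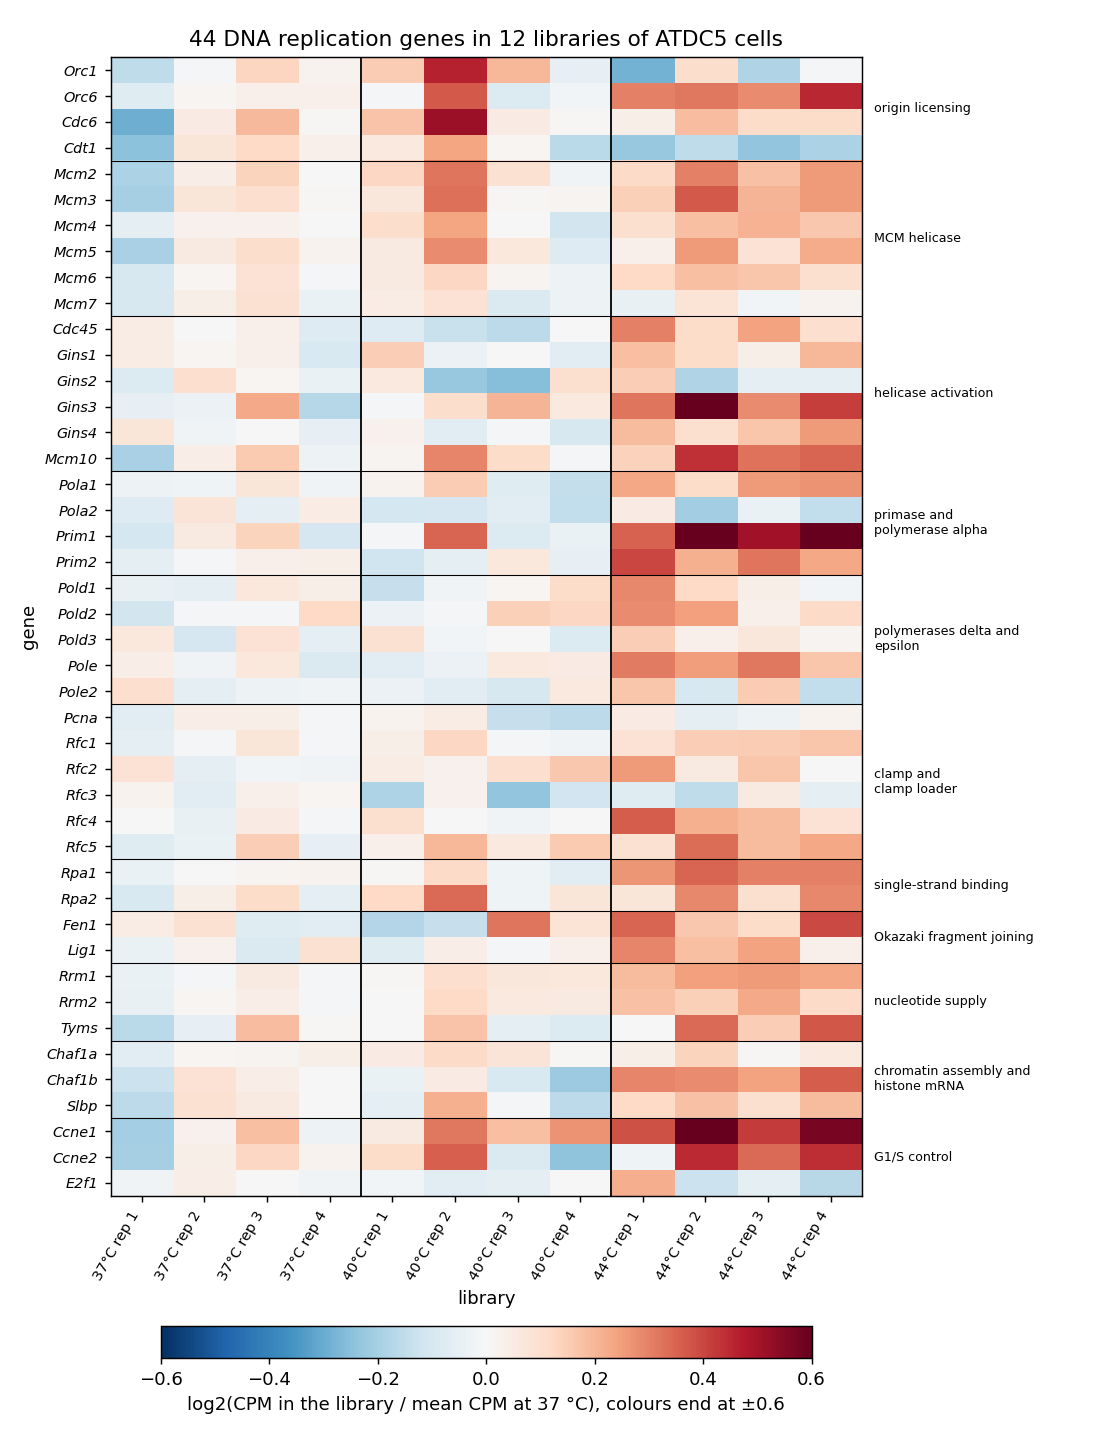
Log2 of each library's CPM over the mean CPM at 37 °C for the 44 genes (rows, by role) in the 12 libraries (columns, 4 per temperature), with colours ending at ±0.6. Red prevails in the 4 columns at 44 °C, strongest in Prim1, Ccne1 and Gins3, while the cells of Cdt1, Pola2 and Pcna at 44 °C are pale or blue, and 40 °C replicate 2 is redder than the other libraries at 40 °C.

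Among the origin licensing genes the one called was Orc6, which encodes the smallest subunit of the origin recognition complex. Orc6 was at 81.7, 86.5, 87.8 and 87.6 CPM at 37 °C, 85.5, 111, 81.3 and 84.9 CPM at 40 °C and 106, 107, 105 and 117 CPM at 44 °C in replicates 1 to 4, in that order. The libraries at 44 °C all exceeded those at 37 °C, and 1 library at 40 °C, replicate 2, was as high as them. Its log2 fold change at 44 °C against 37 °C was 0.34 ± 0.083 (SE, adjusted p = 0.0163), a call that was lost in the fit without 37 °C replicate 1 or without 44 °C replicate 4 (adjusted p between 0.0567 and 0.057). Cdt1, which brings MCM to the origin, had the largest size of change among the licensing genes not called, from 110.0 ± 11.9 CPM in the 37 °C group to 95.7 ± 2.52 CPM in the 44 °C group (log2 fold change −0.20 ± 0.085, adjusted p = 0.126). It passed as lower in the fit without 37 °C replicate 1, at an adjusted p of 0.0424, and when the axis of within-group spread described below was a covariate, at 0.000703. Orc1, the ATP-binding subunit of the same complex as Orc6, had a log2 fold change of −0.08 ± 0.11 (SE, adjusted p = 0.646), and Cdc6, the loading ATPase, had one of 0.11. Orc6 overlaps Vps35 on the opposite strand, a gene with more reads than its own, so that its count is uncertain.

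None of the 6 MCM helicase subunits was called, although all 6 log2 fold changes were above 0, between 0.01 and 0.24. Mcm3, the subunit with the largest value, was at 255, 308, 314 and 294 CPM at 37 °C, 307, 368, 294 and 296 CPM at 40 °C and 322, 377, 337 and 349 CPM at 44 °C. Its groups at 37 °C and 44 °C did not overlap, with 40 °C replicate 2 inside the range at 44 °C. The log2 fold change was 0.24 ± 0.081 (SE, adjusted p = 0.0579), and it passed in 7 of the 18 alternatives, among them DESeq2 and the fits without 40 °C replicate 2 or without 44 °C replicate 1 (adjusted p between 0.0231 and 0.03 for these libraries). Mcm7, which overlaps Cops6 on the opposite strand, gave a log2 fold change of 0.01 ± 0.056 (SE, adjusted p = 0.923). The other 4 subunits had adjusted p between 0.0786 and 0.218. Mcm2 also passed without 40 °C replicate 2 or without 44 °C replicate 1 (adjusted p between 0.0422 and 0.0436), and Mcm4 without 40 °C replicate 2 (0.0479).

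Of the genes that turn the loaded helicase on, Cdc45, Gins3 and Mcm10 rose at 44 °C. Gins3, a subunit of the GINS ring, was at 22.3, 22.6, 27.1 and 20.5 CPM at 37 °C, 23.0, 24.9, 26.7 and 24.1 CPM at 40 °C and 28.9, 36.2, 28.2 and 30.9 CPM at 44 °C. Its libraries at 44 °C stood above the other 8, the nearest being 37 °C replicate 3. The log2 fold change was 0.42 ± 0.099 (SE, adjusted p = 0.013), a call that was lost in the fit without 37 °C replicate 4 (adjusted p = 0.05). Mcm10, which binds the helicase, was at 101, 119, 129 and 113 CPM at 37 °C, 117, 142, 125 and 115 CPM at 40 °C and 127, 157, 145 and 147 CPM at 44 °C. Its ranges overlapped, since 37 °C replicate 3 exceeded the lowest library at 44 °C. Mcm10 gave a log2 fold change of 0.32 ± 0.085 (SE, adjusted p = 0.0253), a call that was lost in the fit without any 1 of 37 °C replicates 1, 2 and 4 or 44 °C replicates 2, 3 and 4 (adjusted p between 0.0517 and 0.0874).

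Cdc45, the partner of MCM and GINS in the active helicase, was at 86.2, 83.3, 85.4 and 79.1 CPM at 37 °C, 79.0, 76.1, 74.9 and 83.5 CPM at 40 °C and 103, 90.2, 98.7 and 89.6 CPM at 44 °C. The 40 °C libraries were the lowest of the 3 groups on average, and no library at 44 °C fell into the range of either other group. Cdc45 gave a log2 fold change of 0.19 ± 0.06 (SE, adjusted p = 0.0459) against 37 °C and 0.28 ± 0.06 (SE, adjusted p = 0.0128) against 40 °C. The first call was lost in the fit without any 1 of 37 °C replicates 1, 2, 3 and 4, 40 °C replicates 1, 3 and 4 or 44 °C replicates 1, 2 and 3 (adjusted p between 0.0515 and 0.146), and also with library totals in place of TMM, with no filter on low counts and with only the 2 groups compared in the fit (between 0.0591 and 0.0944), and the second without 40 °C replicate 3 (adjusted p = 0.051), and also with only the 2 groups compared in the fit (adjusted p = 0.0565). Gins4 was at 52.1, 48.7, 49.4 and 47.8 CPM at 37 °C, 50.4, 47.5, 49.1 and 46.3 CPM at 40 °C and 56.5, 53.0, 55.5 and 59.2 CPM at 44 °C. All its 44 °C libraries exceeded all at 40 °C. It was called against 40 °C, with a log2 fold change of 0.21 ± 0.057 (SE, adjusted p = 0.0437), while 0.18 ± 0.057 (SE, adjusted p = 0.0511) against 37 °C missed the threshold. That call was lost on leaving out any 1 of the 12 libraries (adjusted p between 0.0503 and 0.142), with no filter on low counts and with only the 2 groups compared. Gins1 had a log2 fold change of 0.13 and Gins2 one of −0.03 ± 0.099 (SE, adjusted p = 0.864). Cdc45 shares its place with Ufd1 on the opposite strand, so its count is uncertain.

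Both primase genes rose at 44 °C against each of the other temperatures. Prim1, the catalytic subunit that makes the RNA primer (ENSMUSG00000025395, chr10:128015168-128030037, plus strand), was at 74.9, 83.7, 88.4 and 75.0 CPM at 37 °C, 79.9, 103, 76.1 and 78.4 CPM at 40 °C and 103, 130.1, 114 and 124 CPM at 44 °C. The lowest library at 44 °C, at 102.8 CPM, stood just above the highest of the other 8, which was 40 °C replicate 2 at 102.5 CPM. Prim1 rose from 80.5 ± 6.69 CPM in the 37 °C group to 118 ± 12.0 CPM in the 44 °C group, a log2 fold change of 0.55 ± 0.098 (SE, adjusted p = 0.00271), and by 0.49 ± 0.097 (SE, adjusted p = 0.00935) from 40 °C. Prim2, the regulatory subunit of primase (ENSMUSG00000026134, chr1:33453810-33669795, minus strand), was at 60.5, 62.7, 64.4 and 64.7 CPM at 37 °C, 58.1, 60.8, 66.0 and 60.9 CPM at 40 °C and 83.3, 73.2, 78.8 and 74.0 CPM at 44 °C. There the 44 °C libraries were above all others, with replicate 1 the highest, whereas replicate 1 was the lowest at 44 °C for Prim1. Prim2 gave a log2 fold change of 0.29 ± 0.059 (SE, adjusted p = 0.00586) against 37 °C and 0.33 ± 0.059 (SE, adjusted p = 0.00513) against 40 °C.

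Of the polymerase alpha subunits that extend the primer, the catalytic Pola1 rose and the accessory Pola2 was not called. Pola1 was at 74.6, 74.8, 80.0 and 75.1 CPM at 37 °C, 77.2, 84.7, 72.4 and 68.9 CPM at 40 °C and 89.3, 82.2, 90.8 and 91.7 CPM at 44 °C. Groups at 37 °C and 44 °C did not overlap, and 40 °C replicate 2 was inside the 44 °C range. The log2 fold change was 0.22 ± 0.065 (SE, adjusted p = 0.0398), a call that was lost in the fit without any 1 of 37 °C replicates 1, 2 and 4, 40 °C replicates 1 and 3 or 44 °C replicates 3 and 4 (adjusted p between 0.0537 and 0.11), and also with no filter on low counts (adjusted p = 0.0548). Pola2 averaged 103 ± 5.43 CPM at 37 °C against 97.2 ± 7.77 CPM in the 44 °C group (log2 fold change −0.08 ± 0.061, adjusted p = 0.375).

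Pole, the catalytic subunit of the leading-strand polymerase epsilon (ENSMUSG00000007080, chr5:110286306-110337474, plus strand), was the one of 5 polymerase delta and epsilon genes that passed. It was at 117, 112, 119 and 108 CPM at 37 °C, 109, 111, 119 and 118 CPM at 40 °C and 141, 136, 142 and 128 CPM at 44 °C. No library at 44 °C reached down to the highest of the other temperatures. Pole gave a log2 fold change of 0.26 ± 0.054 (SE, adjusted p = 0.00623) against 37 °C and 0.26 ± 0.054 (SE, adjusted p = 0.0108) against 40 °C. The other 4 genes had log2 fold changes from 0.02 for its accessory subunit Pole2 to 0.17 for Pold2, a subunit of the lagging-strand polymerase delta (adjusted p between 0.108 and 0.867).

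The clamp Pcna, a common marker of S phase cells, was not called. Pcna was at 287, 309, 307 and 298 CPM at 37 °C, 305, 309, 273 and 269 CPM at 40 °C and 311, 288, 294 and 304 CPM at 44 °C, with all 3 ranges overlapping, and gave a log2 fold change of −0.00 ± 0.054 (SE, adjusted p = 0.972). Among the loader subunits that open and close the clamp, Rfc4 was called, at 45.6, 44.1, 47.0 and 45.1 CPM at 37 °C, 48.6, 45.6, 44.8 and 45.5 CPM at 40 °C and 58.4, 52.7, 51.9 and 48.2 CPM at 44 °C. Its 44 °C replicate 4 fell just below 40 °C replicate 1 but above every library at 37 °C. Rfc4 gave a log2 fold change of 0.22 ± 0.064 (SE, adjusted p = 0.0375), a call that was lost in the fit without any 1 of 37 °C replicates 1, 2 and 4, 40 °C replicates 3 and 4 or 44 °C replicates 1, 2 and 3 (adjusted p between 0.0517 and 0.0987), and also with no filter on low counts and with only the 2 groups compared in the fit (between 0.067 and 0.0939). The log2 fold changes of the other 4 loader genes lay between −0.05 (Rfc3) and 0.21 (Rfc5, adjusted p = 0.0525). Rfc5 passed on leaving out any 1 of 37 °C replicate 3, 40 °C replicate 2 or 44 °C replicate 1 (adjusted p between 0.0194 and 0.046), and Rfc1 passed without 44 °C replicate 1 (0.0436). Rfc4 overlaps Eif4a2 and Rfc5 overlaps Wsb2, each a gene with more reads on the opposite strand, so both counts are uncertain.

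Rpa1, the large DNA-binding subunit of the single-strand binding protein RPA (ENSMUSG00000000751, chr11:75298166-75348324, minus strand), had the smallest adjusted p of the list. It was at 223, 229.9, 233 and 233 CPM at 37 °C, 231, 249, 226 and 219.9 CPM at 40 °C and 277, 292, 283 and 283 CPM at 44 °C. The ranges at 37 °C and 40 °C overlapped, and every library at 44 °C was above both. Rpa1 rose by a log2 fold change of 0.30 ± 0.047 (SE, adjusted p = 0.00118) against 37 °C and 0.30 ± 0.047 (SE, adjusted p = 0.00226) against 40 °C. Rpa2, the middle subunit, had a log2 fold change of 0.19 ± 0.081 (SE, adjusted p = 0.128).

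Of the enzymes that join Okazaki fragments, Lig1, the replicative DNA ligase, was called close to the threshold. It was at 196, 205, 190.1 and 215 CPM at 37 °C, 192, 207, 201 and 206 CPM at 40 °C and 247, 229, 238 and 206 CPM at 44 °C, and 44 °C replicate 4 lay inside the range at 37 °C. Lig1 gave a log2 fold change of 0.19 ± 0.06 (SE, adjusted p = 0.0497). This call was lost in the fit without any 1 of 37 °C replicates 1, 2, 3 and 4, 40 °C replicates 1, 3 and 4 or 44 °C replicates 1, 2 and 3 (adjusted p between 0.0593 and 0.141). It was also lost with library totals in place of TMM, with no filter on low counts and with only the 2 groups compared (between 0.0577 and 0.0803). With the replicate number as a block it was lost too (adjusted p = 0.0604). The values of Fen1, which trims the flaps before ligation, were 8.32, 8.62, 7.67 and 7.70 CPM at 37 °C, 7.15, 7.35, 10.1 and 8.56 CPM at 40 °C and 10.3, 9.05, 8.72 and 10.6 CPM at 44 °C. No library at 37 °C reached those at 44 °C, while 1 library at 40 °C was as high. Fen1 had a log2 fold change of 0.26 ± 0.13 (SE, adjusted p = 0.174).

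Both ribonucleotide reductase genes rose. Rrm1, the large subunit (ENSMUSG00000030978, chr7:102441695-102469771, plus strand), was at 457, 468, 487 and 467 CPM at 37 °C, 472, 504, 492 and 491 CPM at 40 °C and 536, 558, 561 and 551 CPM at 44 °C. The replicates were tight, and every library at 44 °C exceeded the other 8. Rrm1 rose by a log2 fold change of 0.23 ± 0.041 (SE, adjusted p = 0.00273) against 37 °C and 0.17 ± 0.041 (SE, adjusted p = 0.0261) against 40 °C. The second call was lost in the fit without any 1 of 37 °C replicate 4, 40 °C replicates 1, 3 and 4 or 44 °C replicates 2, 3 and 4 (adjusted p between 0.0534 and 0.0999), and also with no filter on low counts and with only the 2 groups compared in the fit (between 0.0936 and 0.106). Rrm2, the small subunit whose level follows S phase, was at 493, 512, 521 and 505 CPM at 37 °C, 507, 551, 529 and 527 CPM at 40 °C and 574, 561, 595 and 549 CPM at 44 °C. It was higher in every library at 44 °C than in any at 37 °C, with 1 library at 40 °C among them. Rrm2 gave a log2 fold change of 0.17 ± 0.044 (SE, adjusted p = 0.0228), a call that was lost in the fit without any 1 of 37 °C replicates 1, 2 and 4 or 44 °C replicate 3 (adjusted p between 0.0551 and 0.0799), and also with no filter on low counts (adjusted p = 0.058). Tyms, which makes thymidylate, had a log2 fold change of 0.22 ± 0.092 (SE, adjusted p = 0.114) and passed without 44 °C replicate 1 (adjusted p = 0.0268).

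Chaf1b, the middle subunit of the chromatin assembly factor CAF-1 that places histones behind the fork (ENSMUSG00000022945, chr16:93883901-93906115, plus strand), was at 49.8, 57.8, 56.0 and 54.4 CPM at 37 °C, 53.1, 56.4, 51.1 and 46.9 CPM at 40 °C and 66.7, 66.3, 64.5 and 70.2 CPM at 44 °C. The lowest library at 44 °C was above the highest of the rest. Chaf1b gave a log2 fold change of 0.30 ± 0.067 (SE, adjusted p = 0.0105) against 37 °C and 0.37 ± 0.067 (SE, adjusted p = 0.00528) against 40 °C. Its partner Chaf1a, the large subunit, had a log2 fold change of 0.06 ± 0.047 (SE, adjusted p = 0.416). Slbp, which binds the stem-loop of histone mRNAs, had a log2 fold change of 0.15 (adjusted p = 0.195).

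Ccne1, which encodes cyclin E1, the activator of Cdk2 at S phase entry (ENSMUSG00000002068, chr7:38097984-38107534, minus strand), was at 25.2, 29.6, 32.9 and 28.5 CPM at 37 °C, 30.2, 36.2, 33.0 and 35.0 CPM at 40 °C and 37.8, 46.5, 38.8 and 43.1 CPM at 44 °C. Levels at 40 °C overlapped those at 37 °C and all 4 libraries at 44 °C were above both. Ccne1 rose from 29.0 ± 3.17 CPM in the 37 °C group to 41.6 ± 3.99 CPM in the 44 °C group (log2 fold change 0.52 ± 0.093, adjusted p = 0.00284), and against 40 °C it had a log2 fold change of 0.31 ± 0.092 (SE, adjusted p = 0.0697). That second difference passed without 44 °C replicate 1 (adjusted p = 0.038). Ccne2, the other cyclin E gene, which overlaps Ints8 on the opposite strand, had a log2 fold change of 0.31 ± 0.13 (SE, adjusted p = 0.105) and passed without 44 °C replicate 1 (adjusted p = 0.0193). E2f1, a transcription factor of the G1/S step, averaged 102 ± 2.12 CPM at 37 °C against 100.2 ± 12.7 CPM in the 44 °C group (log2 fold change −0.03 ± 0.071, adjusted p = 0.845).

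**Figure D3:**
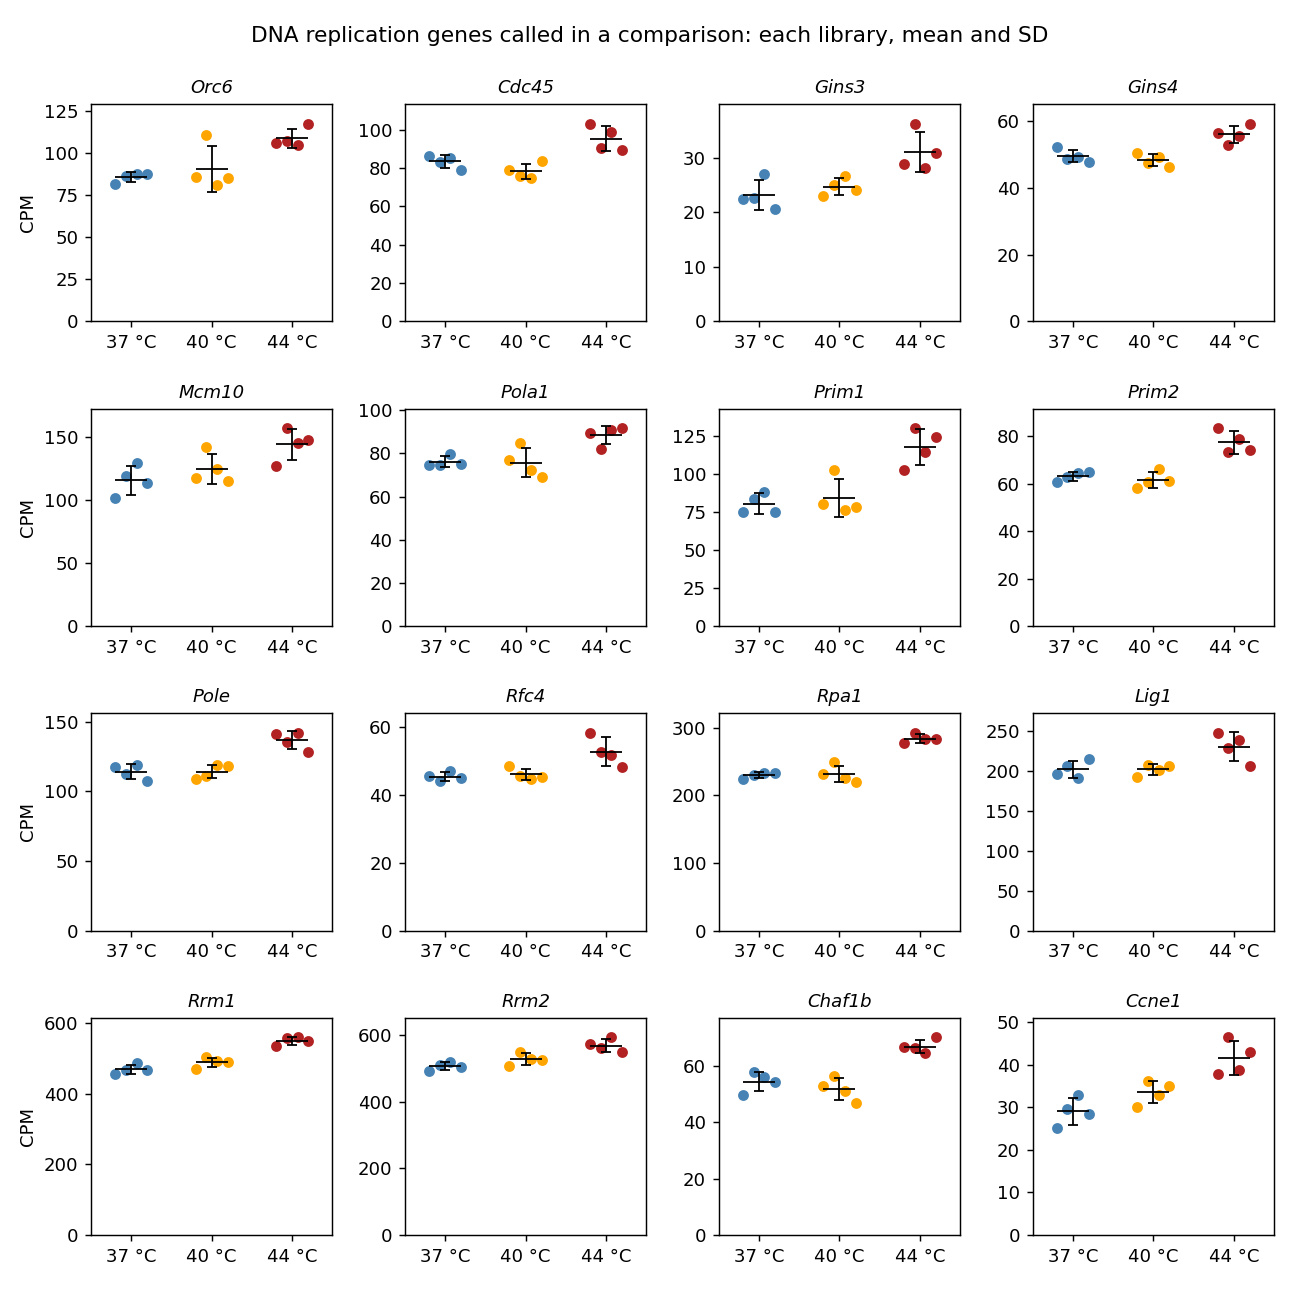
CPM in each library (points, replicates 1 to 4 from left to right), group mean (bar) and SD (whiskers, n = 4) for the 16 members called at 44 °C against 37 °C or 40 °C, with each axis starting at 0. All 4 points at 44 °C are above all others in Prim1, Prim2, Rpa1 and Chaf1b, while Lig1 and Mcm10 overlap between 37 °C and 44 °C.

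At 40 °C none of the 44 genes was called against 37 °C by edgeR's quasi-likelihood test, nor by DESeq2, and 0% of all genes tested were called by edgeR. DESeq2 called 4 of all genes tested, all lower. At an unadjusted p under 0.05 there was 1 member, Ccne1 (log2 fold change 0.21 ± 0.093, adjusted p = 0.823 by edgeR), against 752 of the 14424 genes tested. The median log2 fold change of the 44 was 0.04, with 30 values above 0 and a range from −0.13 (Rfc3) to 0.21. No member had its 4 libraries at 40 °C all above or all below those at 37 °C. Of the 14424 genes tested, 232 had them all above and 321 all below. The 37 °C libraries are shared with the comparison at 44 °C, so the 2 sets of values are not independent.

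Against 40 °C, 8 members were higher at 44 °C and none lower, where 1.88% of all genes tested were called higher and 3.14% lower. They were Cdc45, Gins4, Prim1, Prim2, Pole, Rpa1, Rrm1 and Chaf1b, and in each gene the lowest library at 44 °C exceeded the highest at 40 °C. Over all 44 members this held for 10, and it held for 761 of the 14424 genes tested. No member had the reverse, which 785 of the genes tested had. The median log2 fold change of the 44 was 0.12, against 0.01 over all genes tested, and 40 values were above 0. The lowest log2 fold changes belonged to licensing genes, with −0.29 ± 0.11 (SE, adjusted p = 0.159) for Orc1 and −0.24 ± 0.085 (SE, adjusted p = 0.121) for Cdt1. The count was 5 without 40 °C replicate 3, in a fit whose count over all genes tested is not given here. Without 40 °C replicate 2, Orc6 (adjusted p = 0.00196) and Pola1 (0.0146) passed as well. Gins3 passed without 44 °C replicate 1 (0.0482) and Lig1 without 44 °C replicate 4 (0.0336). Prim1, Prim2, Pole, Rpa1 and Chaf1b were called under all 18 alternatives. In the joint test over the 3 temperatures 10 members passed, where 8.21% of all genes tested were called. These were Orc6, Cdc45, Gins3, Prim1, Prim2, Pole, Rpa1, Rrm1, Chaf1b and Ccne1.

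**Figure D4:**
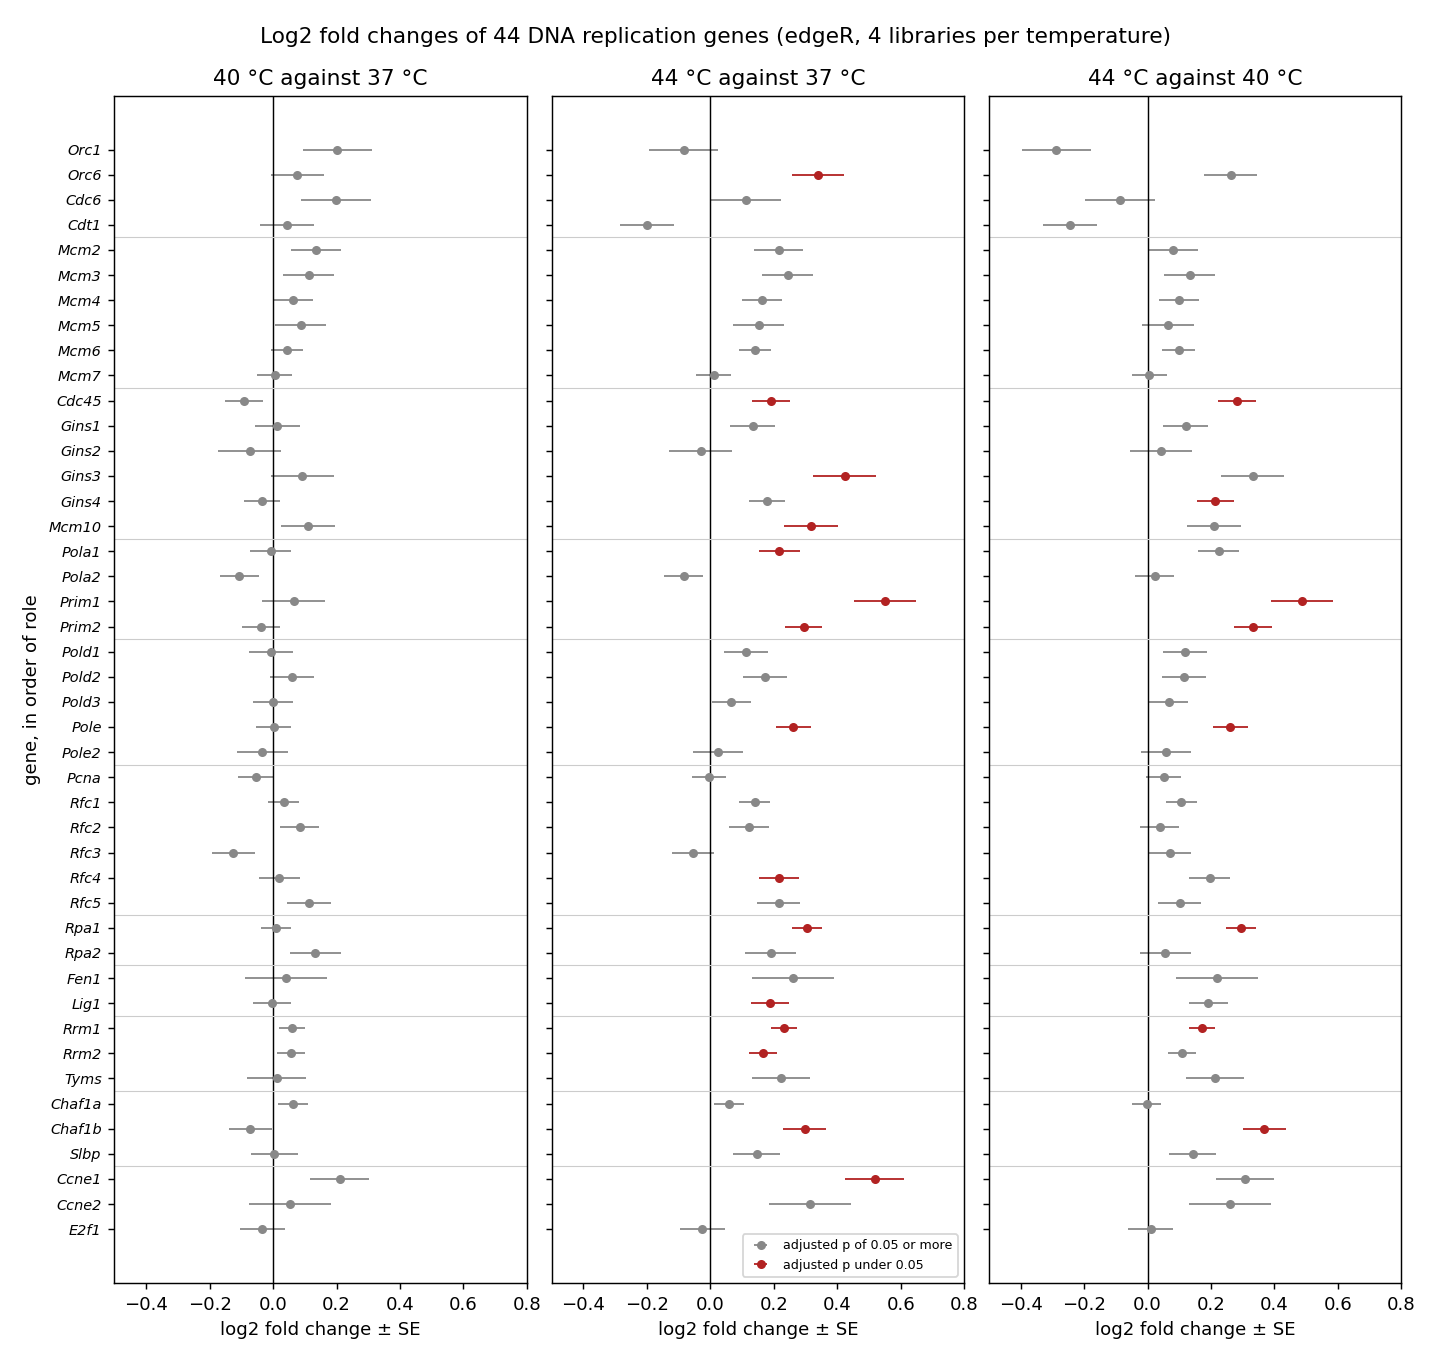
Log2 fold change with SE for each of the 44 genes (rows, in order of role) in the 3 comparisons, each with 4 libraries per temperature. Points with an adjusted p under 0.05 are red: there are none for 40 °C against 37 °C, 15 for 44 °C against 37 °C and 8 for 44 °C against 40 °C, all to the right of 0.

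Subunits of one complex did not all have the same values, and 9 pairs of genes were set against each other as the ratio of their CPM within each library. Orc6 over Orc1 was 3.80, 3.66, 3.37 and 3.62 at 37 °C, then 3.22, 3.37, 2.97 and 3.69 at 40 °C, and 5.41, 4.17, 4.96 and 4.96 at 44 °C. Every 44 °C library was above every other library. The difference in log2 ratio at 44 °C against 37 °C was 0.43 ± 0.087 (SE). Pola1 over Pola2 was 0.764, 0.687, 0.807 and 0.706 at 37 °C and 0.837, 0.923, 0.906 and 0.986 at 44 °C, a difference of 0.30 ± 0.072. Chaf1b over Chaf1a was 0.353, 0.389, 0.375 and 0.359 at 37 °C and 0.441, 0.409, 0.434 and 0.457 at 44 °C, a difference of 0.24 ± 0.045. In these pairs, and in Pole over Pole2 (0.24) and Ccne1 over Ccne2 (0.21), the groups at 37 °C and 44 °C did not overlap. For each of these 5 pairs a two-sided exact permutation test of 4 against 4 libraries gave p = 0.0286, the smallest it allows. Benjamini-Hochberg adjustment of these p-values over the 9 pairs gave 0.0514, above 0.05. With 5 of the 9 pairs at the smallest p no lower adjusted value could be reached, so the adjusted test cannot decide on these pairs. The ratio of the primase subunits Prim1 and Prim2 differed by 0.26 ± 0.13 with overlapping groups (exact permutation p = 0.143, adjusted p = 0.161). Rrm1 over Rrm2 (0.07), Rpa1 over Rpa2 (0.12) and Pold1 over Pold2 (−0.06) also had overlapping groups (exact permutation, adjusted p between 0.0857 and 0.314). The pairs were picked after the values of single genes were known, and each difference kept its sign when any 1 of the 8 libraries was left out, an alternative added after seeing the data.

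The members also varied within the temperature groups, and not all in the same way. An axis of this spread was taken as the leading principal component left after subtracting each gene's group means, over 14305 genes other than the replication and mitosis genes, and it held 29.7% of the spread within groups. The highest scores on it were those of replicate 2 at 44 °C (1.5), replicate 2 at 40 °C (1.46) and replicate 4 at 44 °C (1.37). Replicate 1 was the lowest both at 37 °C (−1.47) and at 44 °C (−1.07). Over the 12 libraries, as deviations from group means, the 4 licensing genes had Pearson r with the axis between 0.708 and 0.957 and the 6 MCM genes between 0.661 and 0.953. All 5 polymerase delta and epsilon genes had negative values, between −0.824 (Pole2) and −0.126, as did Cdc45 (−0.737), Rfc2 (−0.888) and E2f1 (−0.663). Across the 44 genes 28 values were positive and 16 negative, and 21 exceeded 0.7. Pairs of MCM genes had a median r of 0.809 with each other (15 pairs) and pairs of licensing genes 0.803 (6 pairs), against 0.134 over all 946 pairs of members. These correlations describe 12 libraries and share their depth and scaling.

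**Figure D5:**
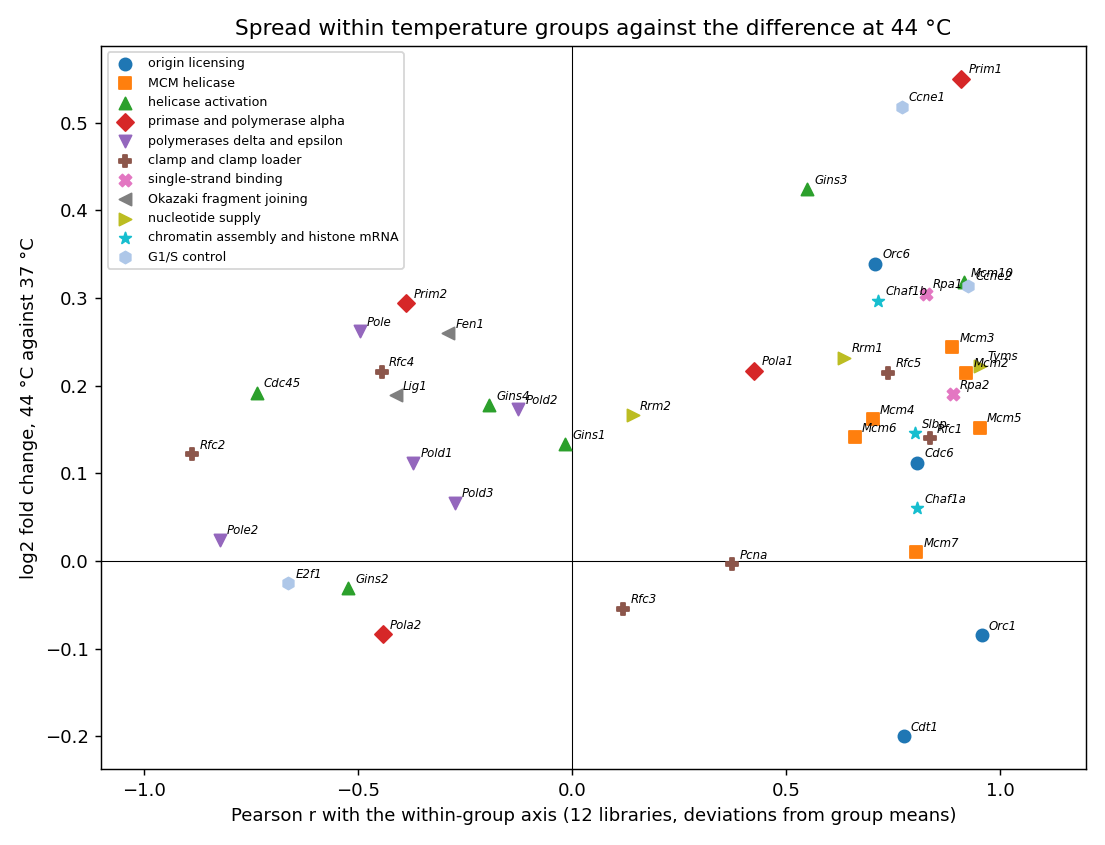
Pearson r of each gene with the within-group axis (x axis, 12 libraries as deviations from group means) against its log2 fold change at 44 °C against 37 °C (y axis), with 1 symbol per role. Genes called higher occur at both ends of the x axis, from Cdc45 at −0.737 to Mcm10 at 0.915, and Orc1 and Cdt1 combine high r with values below 0.

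The mean position of the groups on this axis was −0.423 for the 37 °C libraries (SD 0.779), 0.0117 for those at 40 °C (SD 1.02) and 0.411 for those at 44 °C (SD 1.24). The groups overlapped, and the difference between them was not tested. Of the 15 members called higher, 10 had a positive r with it and 5 a negative one. With the axis as a covariate, 18 members were called higher at 44 °C against 40 °C, where that fit called 8.05% of all genes tested higher. It called 2 members lower, Orc1 (adjusted p = 0.000567) and Cdt1 (0.000599), where 9.54% of all genes tested were lower. Against 37 °C the same fit called 21 members higher, where 10.6% of all genes tested were higher, and 2 lower, Orc1 (0.0252) and Cdt1, where 11.2% were lower. In both comparisons the lower calls took a smaller share of the members than of all genes tested.

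A further 58 replication genes that are not on the list were all tested. At 44 °C against 37 °C 19 were called higher and none lower, where 6.58% of all genes tested were called higher and 7.11% lower. Their median was 0.17, beside 15 of 44 called and a median of 0.18 for the members. The count was 12 without 37 °C replicate 1, where 405 of all genes tested were called higher. Among 14 licensing and firing genes 6 rose, with the smallest p for the origin recognition gene Orc5 (0.47 ± 0.073, adjusted p = 0.00118) and the checkpoint and initiation gene Topbp1 (0.22 ± 0.044, 0.00559). Of 16 fork genes 4 rose, led by Top2a, which untangles DNA (0.27 ± 0.044, 0.0017), and Atad5, which unloads the clamp (0.42 ± 0.072, 0.00204). Of 8 chromatin copying genes 3 rose, led by the maintenance methyltransferase Dnmt1 (0.20 ± 0.042, 0.00703) and the histone chaperone Rbbp4 (0.17 ± 0.045, 0.023). Of 12 G1/S control genes 5 rose, led by the repressive E2F family gene E2f7 (0.53 ± 0.056, 7.66e-05) and Skp2, which targets Cdk inhibitors for degradation (0.40 ± 0.06, 0.00106). All these adjusted p come from edgeR's quasi-likelihood test over all genes.

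Against 40 °C, 14 of the 58 were higher and none lower, where 1.88% of all genes tested were called higher and 3.14% lower. The fit on only the 2 groups compared gave 7 higher, where it called 103 of all genes tested higher. The axis as a covariate gave 29, where it called 8.05% of all genes tested higher. With 40 °C replicate 1 left out 7 passed, with 40 °C replicate 4 left out 8, and with 40 °C replicate 3 or 44 °C replicate 2 left out 9. The counts over all genes tested in the fits with a library left out are not given here. These drops are therefore not read as particular to the further replication genes. At 40 °C against 37 °C none was called, 2 at an unadjusted p under 0.05.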

How the data were processed

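Poly(A) RNA of 12 ATDC5 samples was sequenced, 4 at each of 3 temperatures. The authors deposited raw read counts per gene, 1 column per sample. The submitters' processing notes name fastp, HISAT2 2.0.5, StringTie 1.3.3b, featureCounts 1.5.0-p3 and mm10. The role of each tool, the use of strand and the treatment of reads with several positions are not given in the sources used here, and either could move reads between overlapping or near-identical genes. The deposited table also supplied the symbols, gene identifiers and coordinates used.

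Tests were run in edgeR 4.0.16 under R 4.3.3. The filterByExpr filter was applied (minimum count 10, minimum total 15), which retained at least 99.86% of each library's reads. Library sizes were scaled by TMM. A single quasi-likelihood fit held all 12 libraries, with a mean for each temperature, and Benjamini-Hochberg adjustment was made over 14424 genes, with calls at an adjusted p under 0.05. Each SE was derived from the log2 fold change and the F statistic of its contrast. The fitting script was tested on simulated data. Alternatives were library totals in place of TMM, no filter, DESeq2 1.42.0, only the groups compared, the replicate number as a block, an axis of within-group spread as a covariate, and each library left out in turn. Intervals of depth (3 counts) cover counting error only. The design text calls the replicates biological, and nothing says how their cultures were separated, so p-values measure the spread between these samples.

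Members with a call are given in every library. Of the others, those with the largest and smallest change in each role are named, and in further lists the genes with the 2 smallest p. A member that passed when a single library was left out was named after its values were seen. The members and the lists were chosen with earlier results of these data known. The nucleotide supply genes among the further replication genes count in the totals and are not reported here one by one. Subunit pairs were compared by exact permutation tests. Promoters come from a RefSeq table (GRCm38.p6), and protein sequences were not analysed here.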

Additional observations from a re-analysis of the deposited data

Results flagged for a closer look

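In 132 groups of 4 libraries (44 genes at 3 temperatures) the highest and lowest library were compared with the nearest of the others, and in 4 groups the gap took a larger share of the whole range than Dixon's critical value allows. By chance about 1 group in 20 would do so. Orc6 at 40 °C had 111 CPM in replicate 2, where the other libraries had 81.3 to 85.5 CPM. Prim1 at 40 °C had 103 CPM in the same replicate, against 76.1 to 79.9 CPM. This is a library with one of the highest scores on the axis of within-group spread (1.46). Pola1 at 37 °C had 80 CPM in replicate 3, against 74.6 to 75.1 CPM, and Rfc5 had 63.8 CPM in that replicate, against 54.6 to 56 CPM. These libraries stayed in every value above unless it is said that they were left out.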

How the results depend on the processing

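Among the 44 genes no called value changed sign under any alternative. For 44 °C against 37 °C, leaving out 1 library gave 8 to 19 called higher and 0 to 1 called lower, and the axis of within-group spread as a covariate gave 2 lower. For 44 °C against 40 °C, leaving out 1 library gave 5 to 9 higher, and the axis gave 18 higher and 2 lower. For this comparison the counts over all genes tested with 1 library left out are not given here. The fit on only the 2 groups compared gave 5 higher, where it called 103 of all genes tested higher. The joint test called 22 with the axis (20.9% of all genes tested) and 16 with DESeq2 (14.2%). The cause of these differences was not tested. With the replicate block, 17 were higher against 37 °C, 9 against 40 °C and 12 passed the joint test, within 1.5 times the counts without it. The block also raised the count over all genes tested in each of these tests. These gains are therefore not read as particular to the members. Against 37 °C the block lost the call of Lig1 (adjusted p = 0.0604) and gained Mcm2 (0.0413), Mcm3 (0.0164) and Rfc5 (0.0398), and against 40 °C it gained Ccne1 (0.03). Same-numbered libraries had correlations of deviations between −0.207 and 0.366 (median 0.0501, 12 pairs). Differently numbered ones had correlations between −0.392 and 0.31 (median −0.00701, 36 pairs). Of 12 libraries, 6 correlated best with their own number, more than the share of same-numbered pairs would give. These values do not settle whether the numbers pair the samples. The main fit did not use the numbers, and the fit with the block did. DESeq2 called 20 (9.23% of all genes tested) and library totals 16 higher against 37 °C. With library totals the count over all genes tested called higher was also above that of the main fit. Over all genes tested, the count called higher for 44 °C against 37 °C, 949, became 1531 with the axis and lay between 405 and 1717 when 1 library was left out. At 37 °C the means of the members lay between 8.08 and 507.8 CPM, above the limit that a count of 0 allows. The lowest was Fen1, with 116 to 194 reads in a library and an SE of 0.13 on the log2 scale, so a change of its size (0.26) was not resolved at this depth and spread.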

Other observations

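Genes of mitosis and of cell cycle arrest, which are not among the replication genes, gave mixed values at 44 °C against 37 °C by edgeR's quasi-likelihood test. Of 17 mitosis genes 1 rose, the mitotic kinase gene Cdk1, with a mean of 298 CPM where the control had 244 CPM (log2 fold change 0.29 ± 0.045, adjusted p = 0.00118), and 3 fell, where 6.58% of all genes tested were called higher and 7.11% lower. The B-type cyclin gene Ccnb2 fell from 148 to 114 CPM (−0.37 ± 0.076, adjusted p = 0.00615). Cdc20, an activator of the anaphase-promoting complex, fell to 281 CPM (−0.36 ± 0.085, adjusted p = 0.0145), and the spindle checkpoint kinase gene Bub1b fell from 305 to 264 CPM (−0.21 ± 0.044, adjusted p = 0.00705). The median of the 17 was 0.00. With 44 °C replicate 1 left out 3 rose, where 1717 of all genes tested were called higher, against 949 in the main fit. With 40 °C replicate 2 left out, or only the 2 groups compared in the fit, 2 rose. The count over all genes tested lay between 405 and 1717 when 1 library was left out. These small counts of higher calls are therefore not read as a result particular to mitosis genes. The number called lower stayed at 3 with any 1 library left out, where 564 to 1638 of all genes tested were called lower. It is a small count as well, and is not read as particular to these genes either. DESeq2 called 4 higher, where it called 9.23% of all genes tested higher. The axis of within-group spread as a covariate gave 3 higher and 6 lower, where it called 10.6% of all genes tested higher and 11.2% lower.

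Of 6 genes of Cdk inhibitors that were tested, 2 fell and none rose. Over all genes tested, 7.11% were called lower and 6.58% higher. Cdkn2a, which encodes p16INK4A and ARF, fell from 85.4 to 69.2 CPM (−0.30 ± 0.072, adjusted p = 0.0141 by edgeR). Its neighbour Cdkn2b fell from 21.3 to 15.7 CPM (−0.44 ± 0.14, adjusted p = 0.0496), close to the threshold of 0.05. The alternatives are not reported here for these genes. Cdkn1a, the p53 target that encodes p21, averaged 85.7 CPM at 37 °C against 99.2 CPM at 44 °C (0.21 ± 0.2, adjusted p = 0.498).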
